A study of Mus musculus with 6 samples.

Results

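The CpG islands (CGIs) of the 4 Hox gene clusters were compared between Mdr2-KO and Mdr2-/+ mouse livers. Membership was set by position alone, but the set was chosen with earlier results of these data known. A probe belonged to the set if its start, on the mm8 mouse assembly that the array design uses, lay in 1 of 4 fixed windows around Hoxa with Evx1, Hoxb, Hoxc, and Hoxd with Evx2. The first to the last probe kept spanned chr6:52087848-52246404 in the Hoxa window, chr11:95991506-96183195 in Hoxb, chr15:102749463-102887754 in Hoxc and chr2:74456504-74564736 in Hoxd. Of the 88737 CGI probes on the array, 460 lay in these windows: 157 in the Hoxa window, 109 in Hoxb, 84 in Hoxc and 110 in Hoxd. These spans measured 159, 192, 138 and 108 kb. The files give each probe a position but no gene, so a CGI in a window need not belong to a Hox gene, and no CGI below is assigned to a single gene.

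Each group held 3 FVB males, 12 months old, with 1 array per mouse. Mdr2-KO mice lack both copies of Mdr2 (Abcb4), the transporter that moves phosphatidylcholine into bile, and they develop chronic liver inflammation. The controls were Mdr2-/+ heterozygotes, which keep 1 working copy, bred from Mdr2-KO (FVB.129P2-Abcb4tm1Bor) and FVB/NJ mice. Total liver DNA was precipitated with an antibody against 5-methylcytosine (methylated DNA immunoprecipitation, MeDIP) and labelled with Cy5, and the untreated total DNA of the same liver (input) was labelled with Cy3. The value used below is the log2 ratio of MeDIP over input, centred on the median of its array, so a value above 0 lies above the middle probe of that array. It is a relative measure of methylation and not a percentage of methylated cytosines. Because whole liver was used, more methylation within a cell type and more cells of a methylated type cannot be told apart.

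Hox genes encode homeodomain transcription factors that set position along the body axis, and their order along the chromosome mirrors where they are expressed in the embryo. Evx1 and Evx2 are homeobox genes that lie next to Hoxa13 and Hoxd13. The clusters are unusually rich in CpG islands, which in many tissues are bound by Polycomb repressors rather than methylated. In the RefSeq gene order, the high-coordinate end of the Hoxa window is that of Hoxa13 and Evx1. The Hoxb window runs from Hoxb13 to Hoxb1, the Hoxc window from Hoxc13 to Hoxc4, and the Hoxd window from Evx2 and Hoxd13 to Hoxd1.

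The probes themselves come without letters in these files, so the CpG content of the clusters is shown through promoters from the RefSeq table of assembly GRCm38.p6. It held 24 of the 41 genes of the clusters (10 of 12 in Hoxa with Evx1, 3 of 10 in Hoxb, 1 of 9 in Hoxc and 10 of 10 in Hoxd with Evx2), with 26 promoters. In the 250 bases before the start these promoters held a median of 12.5 CpGs, against 6 over all 32851 promoters of the table, and 21 of the 26 lay above that median. The motif counted was CG, which reads the same on both strands. It occurred at least once in all 26 and in 92.1% of all promoters. The most CpG-rich promoter held for each cluster and, as a contrast, that of Hoxd4 are printed 5′ to 3′. For Hoxc it was that of the only gene held, and for Hoxb the choice was among 3 genes, so richer promoters may be missing. Every CpG is in capitals, since only cytosines in these positions are usually methylated in liver. The promoter coordinates are on GRCm38.p6 and cannot be set against the mm8 positions of the probes.
Hoxa13 (chr6:52260881-52261130, - strand, 35 CpGs): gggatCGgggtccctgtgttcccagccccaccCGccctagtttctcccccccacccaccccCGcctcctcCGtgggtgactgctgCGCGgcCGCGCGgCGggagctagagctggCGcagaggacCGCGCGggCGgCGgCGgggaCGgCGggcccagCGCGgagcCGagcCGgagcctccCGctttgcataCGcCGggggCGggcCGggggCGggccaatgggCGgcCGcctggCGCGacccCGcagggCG
Hoxb4 (chr11:96318017-96318266, + strand, 14 CpGs): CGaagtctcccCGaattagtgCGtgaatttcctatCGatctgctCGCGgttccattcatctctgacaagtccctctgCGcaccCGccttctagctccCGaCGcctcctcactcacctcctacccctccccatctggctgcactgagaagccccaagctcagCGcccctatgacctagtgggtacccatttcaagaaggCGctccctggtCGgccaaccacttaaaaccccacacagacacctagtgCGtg
Hoxc4 (chr15:103034145-103034394, + strand, 8 CpGs): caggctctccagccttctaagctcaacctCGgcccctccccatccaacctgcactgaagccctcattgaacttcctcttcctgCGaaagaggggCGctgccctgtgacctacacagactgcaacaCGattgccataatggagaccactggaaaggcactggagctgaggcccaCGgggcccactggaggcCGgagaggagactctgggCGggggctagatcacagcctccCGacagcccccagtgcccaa
Hoxd13 (chr2:74667975-74668224, + strand, 31 CpGs): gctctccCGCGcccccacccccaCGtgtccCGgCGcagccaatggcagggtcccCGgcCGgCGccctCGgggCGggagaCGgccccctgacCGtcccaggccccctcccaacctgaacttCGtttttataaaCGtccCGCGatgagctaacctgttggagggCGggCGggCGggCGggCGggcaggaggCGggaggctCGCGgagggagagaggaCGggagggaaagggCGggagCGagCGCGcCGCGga
Hoxd4 (chr2:74721728-74721977, + strand, 3 CpGs): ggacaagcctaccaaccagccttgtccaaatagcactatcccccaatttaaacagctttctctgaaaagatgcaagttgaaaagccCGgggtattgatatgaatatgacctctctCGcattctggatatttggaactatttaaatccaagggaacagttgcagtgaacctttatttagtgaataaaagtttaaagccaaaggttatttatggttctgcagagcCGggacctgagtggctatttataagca
The 35 CpGs of the Hoxa13 stretch were more than those of 97.0% of all promoters, and the 31 of Hoxd13 more than those of 94.8%. The 3 CpGs of Hoxd4 were more than those of 29.0%, so density varied widely within a cluster.

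Averaged over all probes of a cluster, the Hoxd, Hoxa and Hoxc windows carried more methylation signal in every Mdr2-KO liver than in any Mdr2-/+ liver, and the Hoxb window did not. In Hoxd the 3 Mdr2-/+ livers had mean log2 ratios of -0.02, -0.07 and -0.09, and the 3 Mdr2-KO livers 0.73, 1.29 and 0.65. The group means were -0.06 ± 0.04 and 0.89 ± 0.35 (SD, n = 3 each), a difference of 0.95. In Hoxa the Mdr2-/+ livers had 0.19, 0.06 and 0.08 and the Mdr2-KO livers 0.61, 0.99 and 0.51, a difference of 0.59. Both windows separated the genotypes, and Mdr2-KO replicate 2 was the highest liver in each. In Hoxc the Mdr2-/+ livers had -0.29, -0.35 and -0.30 and the Mdr2-KO livers -0.06, 0.18 and -0.04, a difference of 0.34. After normexp background correction the Hoxc difference was 0.00081, so this window showed no difference under that setting, while Hoxd kept 0.53 and Hoxa 0.31. In Hoxb the Mdr2-/+ livers had 0.51, 0.15 and 0.20 and the Mdr2-KO livers 0.41, 0.63 and 0.43, so the groups overlapped and the difference was 0.21. After normexp correction the Hoxb difference was 0.16, larger than that of Hoxc under the same setting. Mdr2-/+ replicate 1 was the highest control in Hoxb, in every other window and over all probes of the array (0.31, against 0.16 and 0.17). Over all 88646 probes of the array the difference was 0.08. No test was made on these averages, because a cluster is not a replicate.

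**Figure D1:**
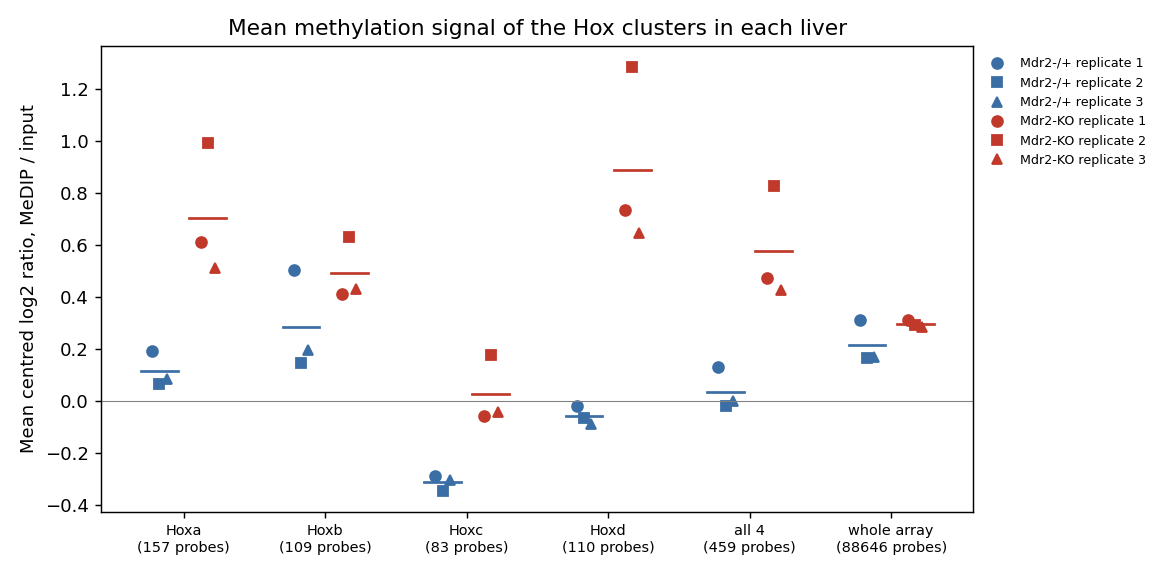
Mean centred log2 ratio of MeDIP over input (y axis) over the probes of each Hox cluster, of all 4 clusters and of the whole array, with 1 point per liver and a bar at each group mean. The Mdr2-KO livers lie above every Mdr2-/+ liver in Hoxa, Hoxc and Hoxd, while the points overlap in Hoxb and over the whole array.

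The 2 dyes were also looked at one by one, each centred on its own median. The MeDIP channel was higher in Mdr2-KO by 0.86 in Hoxd, 0.55 in Hoxa, 0.25 in Hoxc and 0.12 in Hoxb. The input channel differed by -0.03, 0.02, -0.03 and -0.03 in the same order. The input difference was thus small in every window beside that of the MeDIP channel.

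The arrays came from 3 slides. Slide 1 held Mdr2-/+ replicate 1 and Mdr2-KO replicate 1, slide 2 the other two Mdr2-/+ arrays and slide 3 the other two Mdr2-KO arrays, so genotype cannot be told apart from slide for these 4. Within slide 1, the Mdr2-KO liver minus the Mdr2-/+ liver was 0.75 in Hoxd, 0.42 in Hoxa, 0.23 in Hoxc and -0.092 in Hoxb, and 0.00 over the whole array. In Hoxd, Hoxa and Hoxc every Mdr2-KO liver lay above every control, which fixes the direction of the slide 1 pair and leaves only its size open. In Hoxb, where the groups overlapped, the direction turned. Between 71.3% and 77.4% of the Hox probes were well above background in the MeDIP channel of the Mdr2-/+ arrays and between 80.9% and 83.5% on the Mdr2-KO arrays. Over all probes these shares were 78.1% to 83.4% and 81.5% to 86.4%, so the genotypes overlapped there. No Hox spot was saturated.

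For the comparison of single islands, probes whose starts lay at most 500 bp apart were joined, and runs with at least 3 probes were taken as CGIs, with the mean of their probes as value. The windows held 78 of the 13821 CGIs of the array: 21 in Hoxa, 20 in Hoxb, 18 in Hoxc and 19 in Hoxd. They are numbered below from the low-coordinate end of each window. A CGI was called where limma's two-sided test, adjusted by Benjamini-Hochberg over all 13821 CGIs, gave an adjusted p under 0.05.

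Of the 78 Hox CGIs, 20 were called higher in Mdr2-KO (25.6%), where 4.28% of all CGIs were called higher. By window these were 9 of 19 CGIs in Hoxd, 6 of 21 in Hoxa, 4 of 18 in Hoxc and 1 of 20 in Hoxb, so the Hoxb share of 5% lay near that of the array. No Hox CGI was called lower by limma, where 0.217% of all CGIs were. At an unadjusted p under 0.05, limma had 36 higher (14.8% of all CGIs) and 3 lower (5.51% of all CGIs). The methods' t-test had 33 higher and 2 lower at that threshold, against 11.5% and 6.08% of all CGIs. The 3 Mdr2-KO livers lay above all 3 Mdr2-/+ livers in 36 of the 78 (46.2%, against 15.9% of all CGIs) and below them in 3 (against 10.8%). The median difference over the 78 was 0.37 (quartiles 0.09 and 0.76) and over all CGIs 0.00. By window the median was 0.71 in Hoxd, 0.56 in Hoxa, 0.23 in Hoxc and 0.19 in Hoxb. A difference of at least 1, which is a doubling of the ratio, was found in 13 Hox CGIs (6 in Hoxd, 6 in Hoxa and 1 in Hoxc), against 2.37% of all CGIs. On a Z scale, on which the ratios of each array are scaled to the same SD, 9 Hox CGIs were higher by 0.7 or more (5 in Hoxd and 4 in Hoxa), against 1.31% of all CGIs, and 0 were lower by as much, against 0.0362%.

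The number of calls depended on single livers and on the treatment of the slide. It was 35 without Mdr2-/+ replicate 1, where 19.1% of all CGIs were called higher. It was 1 without Mdr2-/+ replicate 2, Mdr2-/+ replicate 3 or Mdr2-KO replicate 1 (0.658%, 0.463% and 0.239% of all CGIs). It was 8 without Mdr2-KO replicate 2 (1.09%) and 19 without Mdr2-KO replicate 3 (3.21%). It was 0 with slide as a fixed block. After normexp background correction it was 0, where 0% of all CGIs were called higher. At an unadjusted p under 0.05 limma had 21 Hox CGIs higher in each (6.34% of all CGIs with the slide block and 14.8% after normexp).

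**Figure D2:**
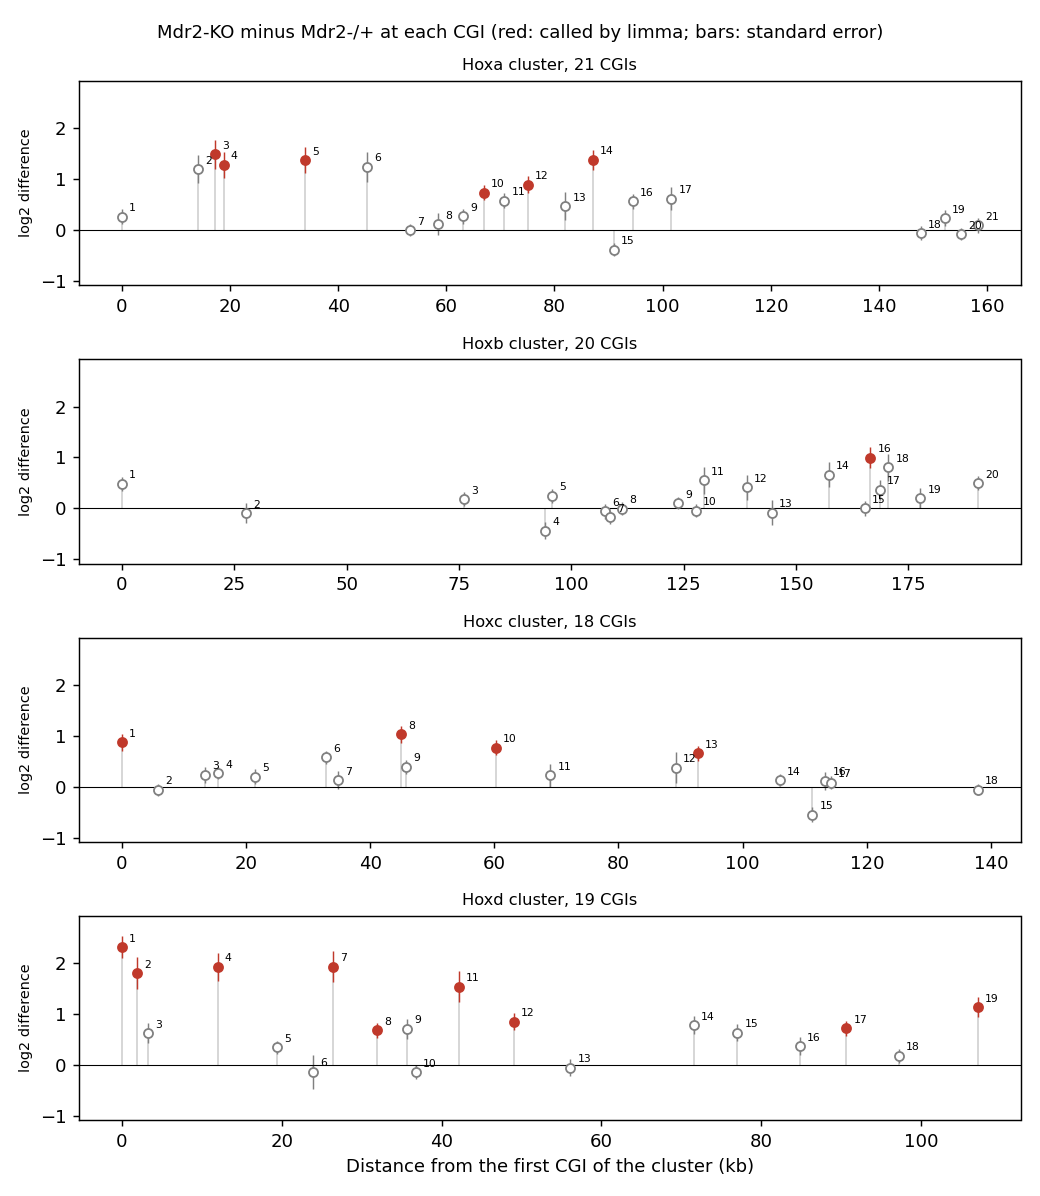
Difference in mean centred log2 ratio, Mdr2-KO minus Mdr2-/+ (y axis), of each Hox CGI against the distance in kb from the first CGI of its window (x axis), with 1 panel per cluster, the called CGIs in red and bars for the standard error. Hoxd rises reach 2.32 and lie mostly towards the Evx2 and Hoxd13 end, whereas the Hoxb values lie between -0.44 and 0.99 with 1 called CGI.

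Hoxd held the largest rises. Hoxd CGI 1 (chr2:74456504-74457058 on mm8, 4 probes), the first island at the Evx2 end, had log2 ratios of 0.57, 0.14 and 0.29 in the Mdr2-/+ livers and 2.42, 3.14 and 2.40 in the Mdr2-KO livers. Every Mdr2-KO liver lay far above every control. The difference was 2.32 ± 0.22 (SE, adjusted p = 0.0039 by limma), the 8th largest rise of all 13821 CGIs. It was the only Hox CGI that was still called when any 1 liver was left out.

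Hoxd CGI 7 (chr2:74482926-74483774) had 0.04, 0.04 and 0.25 in the Mdr2-/+ livers and 1.84, 2.80 and 1.48 in the Mdr2-KO livers, a difference of 1.93 ± 0.30 (adjusted p = 0.0165 by limma). Hoxd CGI 4 (chr2:74468499-74469742) had 0.66, 0.03 and 0.27 against 2.05, 2.85 and 1.84, a difference of 1.93 ± 0.27 (adjusted p = 0.0139 by limma). In both islands the lowest Mdr2-KO liver lay well above the highest control. Hoxd CGI 11 (chr2:74498664-74499777) had -0.38, -0.12 and -0.26 against 0.93, 2.07 and 0.85, a difference of 1.54 ± 0.30 (adjusted p = 0.0314 by limma). Hoxd CGI 19 (chr2:74563593-74564736), the last island of the window, had 0.09, -0.07 and 0.06 against 1.08, 1.60 and 0.81, a difference of 1.14 ± 0.20 (adjusted p = 0.0217 by limma). In both islands Mdr2-KO replicate 2 was the highest liver and no control reached the lowest Mdr2-KO value.

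Hoxd CGI 2 (chr2:74458432-74458925) had the lowest control level of the Hoxd window, with -1.09, -1.52 and -1.58 in the Mdr2-/+ livers and 0.00, 1.19 and 0.06 in the Mdr2-KO livers. The difference was 1.81 ± 0.31 (adjusted p = 0.0217 by limma), but 2 of its 3 probes were not well above background in the MeDIP channel of any control, and after normexp correction the difference was -0.069. Hoxd CGI 12 (chr2:74505526-74505786) had the highest control level, with 1.15, 0.89 and 0.82 against 1.76, 2.11 and 1.55, a difference of 0.85. Rises were thus called at both extremes of the control levels in Hoxd. Hoxd CGI 8 (0.69) and Hoxd CGI 17 (0.72) completed the 9 called islands. The calls were not contiguous: Hoxd CGI 3, 885 bp beyond Hoxd CGI 2, differed by 0.63 and was not called. Hoxd CGI 9 and Hoxd CGI 10 lay 541 bp apart and differed by 0.71 and -0.15 between genotypes. Hoxd CGI 10 (chr2:74493268-74493745) had the largest fall of the window (adjusted p = 0.613 by limma), with 0.67, 0.28 and 0.34 in Mdr2-/+ and 0.22, 0.39 and 0.25 in Mdr2-KO.

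In Hoxa, the called islands were Hoxa CGI 3, 4, 5, 10, 12 and 14, all in the low-coordinate part or in the middle of the window. Hoxa CGI 3 (chr6:52105122-52105824) had 1.28, 0.76 and 0.65 in the Mdr2-/+ livers and 2.16, 3.03 and 1.94 in the Mdr2-KO livers, a difference of 1.48 ± 0.29 (adjusted p = 0.0314 by limma). Hoxa CGI 14 (chr6:52174892-52176222), with 11 probes, had -0.03, -0.31 and -0.22 against 1.08, 1.62 and 0.88, a difference of 1.38 ± 0.19 (adjusted p = 0.0139 by limma). The first was above 0 in every control, and the second below 0 in every control. Hoxa CGI 5 (chr6:52121668-52121912) had 0.45, 0.00 and -0.14 against 1.34, 2.01 and 1.098, a difference of 1.38 ± 0.25. Hoxa CGI 4 (chr6:52106690-52107163) had 0.90, 0.89 and 1.17 against 2.10, 2.89 and 1.80, a difference of 1.28 ± 0.26. Hoxa CGI 12 (0.89) and Hoxa CGI 10 (0.73) had smaller rises.

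The highest control level of the Hoxa window was that of Hoxa CGI 2 (chr6:52102001-52102457), with 2.26, 1.89 and 1.92 in Mdr2-/+ and 2.99, 3.89 and 2.77 in Mdr2-KO. Its groups did not overlap and it differed by 1.20 ± 0.28, but it missed the threshold (adjusted p = 0.0522 by limma). The lowest control level was that of Hoxa CGI 13 (chr6:52169824-52170491), with -0.33, -1.21 and -1.07 against -0.77, 0.02 and -0.46, and its groups overlapped. Of its 5 probes, 4 were not well above background in the MeDIP channel on any Mdr2-/+ array, and 2 not on any Mdr2-KO array. The largest fall was at Hoxa CGI 15 (chr6:52178783-52179235), with -0.85, -0.84 and -0.67 against -1.36, -1.14 and -1.03. All 3 Mdr2-KO livers were lower there, by 0.39 on average, and it was not called (adjusted p = 0.139 by limma). Of its 5 probes, 3 were not well above background in the MeDIP channel on any Mdr2-/+ array, and 2 not on any Mdr2-KO array. The last 4 islands of the window, Hoxa CGI 18 to 21 towards Evx1, differed by between -0.08 and 0.24, and their groups overlapped.

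In Hoxc, CGIs 1, 8, 10 and 13 were called, and all 4 had negative log2 ratios in every Mdr2-/+ liver. Hoxc CGI 8 (chr15:102794450-102794728) had -1.12, -1.09 and -1.01 in Mdr2-/+ and -0.14, 0.29 and -0.30 in Mdr2-KO, a difference of 1.02 ± 0.16 (adjusted p = 0.0172 by limma). Hoxc CGI 1 (chr15:102749463-102750298), at the Hoxc13 end, had -0.64, -0.69 and -0.60 against 0.10, 0.61 and -0.04, a difference of 0.87 ± 0.17 (adjusted p = 0.0336 by limma). In both islands every Mdr2-KO liver lay above every control. Hoxc CGI 10 (chr15:102809710-102810397) differed by 0.77, from -0.68, -0.99 and -0.75 to -0.11, 0.20 and -0.21. Hoxc CGI 13 (chr15:102842218-102843485) differed by 0.65, from -0.12, -0.27 and -0.27 to 0.25, 0.70 and 0.35. After normexp correction the differences of the 4 islands were 0.42, 0.16, 0.041 and 0.074. Hoxc CGI 17, with the highest control level of the window, differed by 0.08. The largest fall was at Hoxc CGI 15 (chr15:102860652-102861048), with 0.53, 0.03 and 0.23 against -0.35, -0.24 and -0.27 (adjusted p = 0.0775 by limma). None of its 4 probes was well above background in the MeDIP channel on any array.

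In Hoxb, the only called island was Hoxb CGI 16 (chr11:96158018-96158434), with 0.89, 0.69 and 0.65 in Mdr2-/+ and 1.72, 2.17 and 1.32 in Mdr2-KO, a difference of 0.99 ± 0.21 (adjusted p = 0.0387 by limma). Its neighbour Hoxb CGI 15, 770 bp away, differed by 0.00 (adjusted p = 0.998 by limma). The Hoxb window also held the Hox island with the highest signal in control liver, Hoxb CGI 18 (chr11:96162015-96162357), with 3.09, 2.42 and 2.44 against 3.36, 3.97 and 3.06. Mdr2-/+ replicate 1 lay just above Mdr2-KO replicate 3, and the difference of 0.81 was not called (adjusted p = 0.134 by limma). Hoxb CGI 12, with the lowest control level, differed by 0.41 with overlapping groups. Of its 5 probes, 3 were not well above background in the MeDIP channel on any Mdr2-/+ array, and 3 not on any Mdr2-KO array. Hoxb CGI 4 (chr11:96085602-96085987) had the largest fall, with 0.19, 0.27 and 0.20 against -0.52, -0.23 and 0.11 (adjusted p = 0.189 by limma). Of its 3 probes, 2 were not well above background in the MeDIP channel on any Mdr2-/+ array, and 2 not on any Mdr2-KO array. Of the 20 Hoxb CGIs, 12 were above 0 in difference and 8 below, against 6971 above and 6850 below of all 13821 CGIs.

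**Figure D3:**
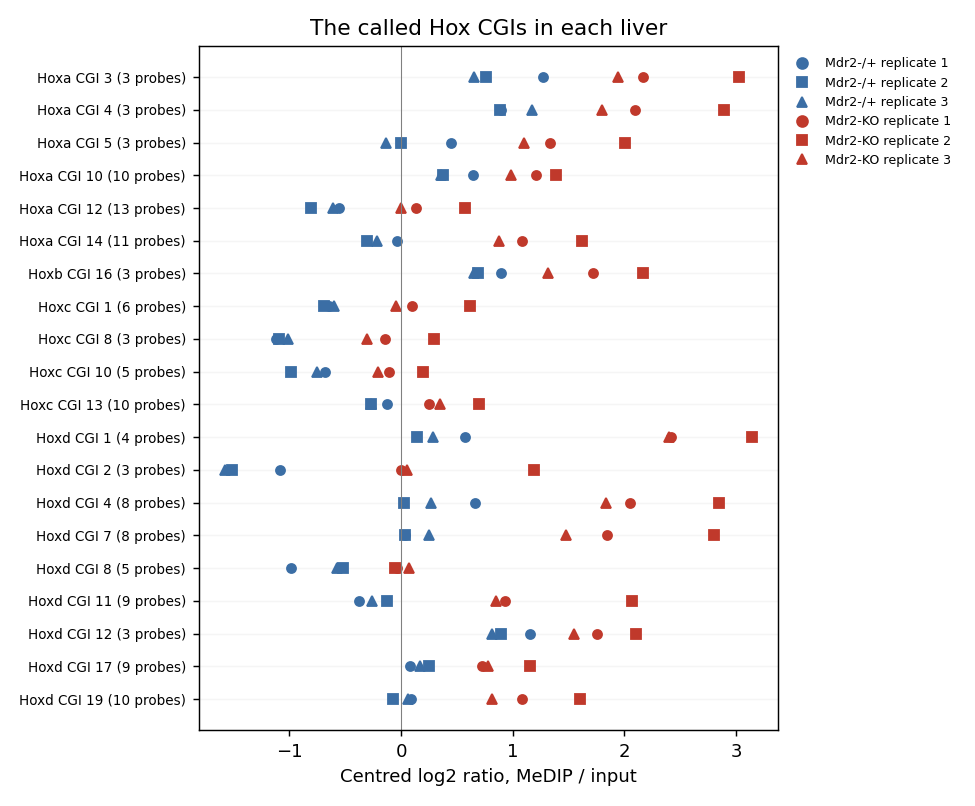
Centred log2 ratio of MeDIP over input (x axis) of the 20 called Hox CGIs (y axis, numbered from the low-coordinate end of each window) in each of the 6 livers. In each row the 3 Mdr2-KO livers lie to the right of the 3 Mdr2-/+ livers, and the Mdr2-KO replicate 2 point is the rightmost in 19 of the 20.

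Several features were shared by the 20 called islands. In none of the 20 did the genotypes overlap, which fixes the direction of the slide 1 pair, and in that pair they differed by 0.38 to 1.84. Over all 78 Hox CGIs, called or not, 51 were higher in the Mdr2-KO liver of slide 1, against 45.3% of all CGIs. The median difference of the 20 called islands was 1.08 in the ratio and 0.96 in the MeDIP channel. In the input channel it was -0.03, and the 20 ranged there from -0.15 to 0.13. In 16 of the 20 every probe had a positive difference, which follows in part from the call, since these probes make up the called mean. Mdr2-KO replicate 2 was the highest Mdr2-KO liver in 19 of the 20 and in 57 of the 78 Hox CGIs (73.1%), against 30.6% of all CGIs. Without this liver the cluster differences were 0.75 in Hoxd, 0.45 in Hoxa, 0.26 in Hoxc and 0.14 in Hoxb.

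In the main setting the called islands were not limited to a level of methylation. When all 13821 CGIs were ranked by their mean in the Mdr2-/+ livers and divided into 5 classes of equal size, the Hox windows had 16, 13, 14, 21 and 14 CGIs from the lowest to the highest class, of which 6, 0, 4, 6 and 4 were called. Over the whole array 2.71%, 2.82%, 3.22%, 5.9% and 6.73% of the CGIs in these classes were called higher. The median difference of the Hox CGIs was 0.55, 0.24, 0.26, 0.37 and 0.73, and that of all CGIs -0.01, -0.05, -0.06, -0.02 and 0.21. The ranking used the same control livers as the differences, so these values are given without a test. The 6 called islands of the lowest class differed by 0.69 to 1.81, and after normexp correction by -0.069 to 0.42. The 4 of the highest class differed by 0.85 to 1.48, and after normexp correction by 0.31 to 0.88. None of the 20 was still called after that correction.

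**Figure D4:**
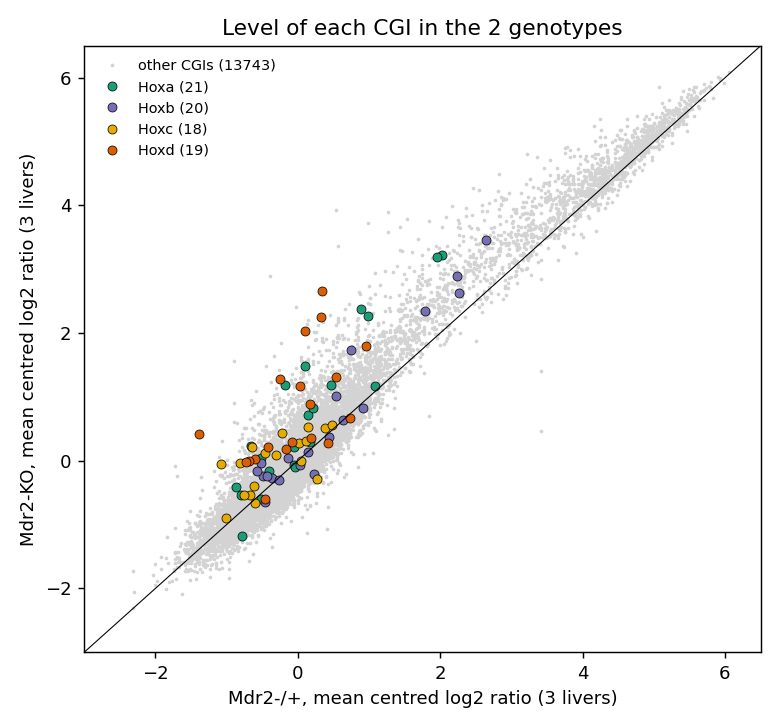
Mean centred log2 ratio in Mdr2-KO (y axis) against that in Mdr2-/+ (x axis) for the 78 Hox CGIs, coloured by cluster, over the other CGIs of the array in grey, with the line of equal values. Of the Hox CGIs 60 lie above the line and 18 below, against 6971 above and 6850 below of all 13821 CGIs. The Hoxd points reach farthest above the line at control values close to 0.

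The single probes showed how the rises were spread within an island. Of the 459 Hox probes tested, 47 were called higher (10.2%, against 1.89% of all 88646 probes): 28 in Hoxd, 14 in Hoxa, 3 in Hoxc and 2 in Hoxb. The Mdr2-KO livers lay above all controls at 201 probes (43.8%, against 14.7%) and below them at 14 (against 9.25%). The difference was above 0 at 351 probes, or 76.5%, against 53% of all probes. Of the 48 Hox probes called in either direction, 41 lay in called CGIs, whose calls rest on the same values. Of the 48, 41 were well above background in the MeDIP channel on all 6 arrays. The count of 47 rested on single livers. Without any single liver except Mdr2-/+ replicate 1 it was 0 by limma, with 141 to 176 Hox probes higher at an unadjusted p under 0.05 (8.8% to 10.6% of all probes). Without that liver it was 59, where 5.95% of all probes were called higher.

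Among the Hox probes well above background in the MeDIP channel on all 6 arrays, the largest rise was at the probe starting at 74457014 in Hoxd CGI 1. It had 0.27, -0.86 and -0.36 in Mdr2-/+ and 2.84, 3.67 and 2.76 in Mdr2-KO, a difference of 3.41 ± 0.36 (adjusted p = 0.0205 by limma). In Hoxd CGI 7 the probe starting at 74483053 had 1.52, 3.06 and 1.12 in Mdr2-KO but was well above background on only 1 of the 3 control arrays, so no size is given for its rise. The first probe of that island, 127 bp before it, had 1.84, 1.43 and 1.46 against 1.89, 2.24 and 1.66, a difference of 0.35 that was not called. In the Mdr2-KO livers the signal of this island was above 1 at all 8 probes. In Hoxd CGI 11 the probe starting at 74499048 had -0.29, -1.12 and -0.60 against 1.93, 3.34 and 1.80, and its neighbour starting at 74499177 had 1.92, 1.54 and 1.34 against 2.15, 2.39 and 1.98. In Hoxd CGI 7 and Hoxd CGI 11 the probe with the highest control values had the smallest difference, with the control livers entering both measures.

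The probes of Hoxd CGI 19 differed widely among themselves too. Its probes starting at 74563704 and 74564435, the highest of the island in control liver, differed by 0.04 and 0.35, while the probe starting at 74563911 had -1.11, -1.67 and -1.36 against 1.07, 2.09 and 0.84. In Hoxa CGI 14 the probes starting at 52175917 and 52176176, which lay between 0.86 and 1.55 in the controls, differed by 0.12 and 0.24, while the probe starting at 52175371 differed by 2.42 ± 0.33. In Hoxa CGI 12 the probe starting at 52163984 was not well above background on any control array and was at least 2.18-fold brighter in the MeDIP channel of the Mdr2-KO livers (adjusted p of its ratio 0.0388 by limma). The same kind of bound was at least 1.49-fold for the Hoxb probe starting at 96087367 and at least 1.19-fold for the Hoxd probe starting at 74458876, which was well above background on only 2 of the 3 Mdr2-KO arrays. These bounds set the mean of the Mdr2-KO arrays against the lowest signal well above background on the control arrays. They used the MeDIP channel after loess within arrays and quantile normalization of intensities between arrays. The adjusted p-values came from the ratios without these steps.

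**Figure D5:**
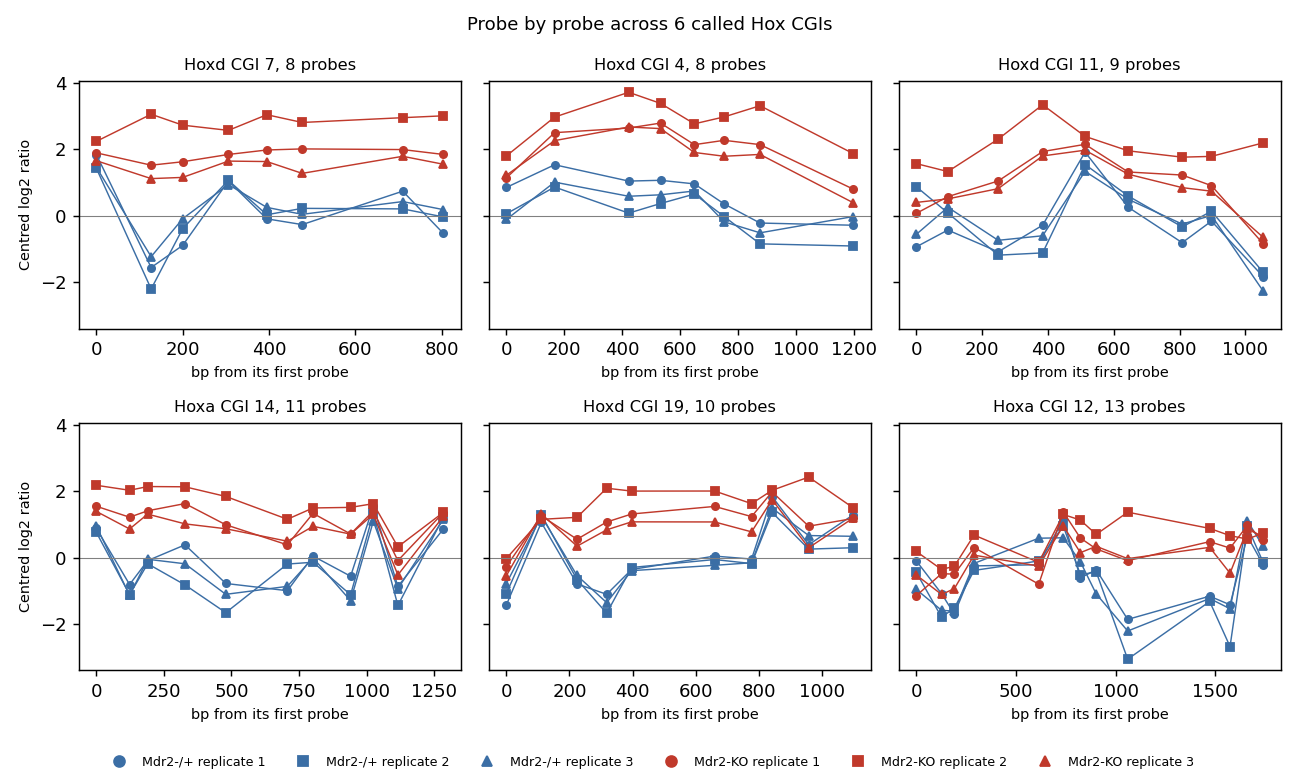
Centred log2 ratio of MeDIP over input (y axis) at each probe of 6 called Hox CGIs against the distance in bp from the first probe of the island (x axis), with 1 line per liver. The Mdr2-/+ lines dip and rise from probe to probe while the Mdr2-KO lines are flatter, and the lines meet where the controls are already high, as at the first probe of Hoxd CGI 7.

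Against 0.122% of all probes, 1 Hox probe was called lower. It started at 52243340 in Hoxa CGI 20. It was not well above background in the MeDIP channel on any array, so no difference is given. A further 6 runs of 2 probes were too short to count as CGIs, 3 in Hoxa, 1 in Hoxb and 2 in Hoxd. Of their 12 probes, 11 had a higher mean in Mdr2-KO (against 53% of all probes), by 0.39 to 1.28, and 1 a lower mean, by -0.34. Only the Hoxb probe starting at 96135277 was called (difference 1.14, adjusted p = 0.0497 by limma). The remaining Hox probe, in Hoxc, was left out because the scanner software had marked its spot as an outlier on at least 1 array.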

How the data were processed

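Genomic DNA of 3 Mdr2-/+ and 3 Mdr2-KO livers was hybridised to 2-colour Agilent mouse CGI arrays. The deposited scanner files hold Cy5 and Cy3 intensities, background-subtracted and dye-normalized by the authors with Agilent Feature Extraction (version 8.5.1.1 in the submitters' notes, 10.5.1.1 in the file headers), with probe positions on mm8. A deposited table of the authors' scores, listing 69831 probes with their scale unstated, served as an alternative. Its 3 Mdr2-/+ columns correlated best with the scanner arrays of another replicate number (r 0.976 to 0.987), which leaves the group unchanged.

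Here log2(Cy5/Cy3) was computed, probes marked as outliers on any array were left out, and each array was centred on its median, without loess or quantile normalization. Only the fold bounds of dim probes used both. CGIs were runs of at least 3 probes with starts at most 500 bp apart. limma 3.58.1 in R 4.3.3 (lmFit and eBayes, two-sided, Benjamini-Hochberg over the whole table, 0.05) was tested on simulated data first. With 3 arrays per group, the number of arrays limits the precision. Alternatives were normexp, loess and quantile normalization, SD scaling, the authors' scores, filters on dim probes and on probe number, another gap, medians, slide and replicate blocks, the t-test of the methods and leaving out each mouse. Named CGIs were those called and, in each window, those with the largest rise, the largest fall, and the highest and lowest Mdr2-/+ level. The members and lists were chosen with earlier results of these data known. Lists of Hox cofactors, other homeobox genes and Polycomb genes were not analysed here, because no probe was assigned to a gene.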

Additional observations from a re-analysis of the deposited data

How the results depend on the processing

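The Hoxa and Hoxd cluster differences kept their direction under every alternative in which they were recomputed. Hoxc kept it except after normexp correction, where it was close to 0, and Hoxb turned to -0.092 with slide as a fixed block. The alternatives of probe number, gap, medians, replicate block, random slide block and t-test were not applied to cluster differences. The number of calls varied. Shares of all CGIs or probes of the array called under the same setting stand in square brackets. The main values were 20 CGIs higher and 0 lower, 47 probes higher and 1 lower, and cluster differences of 0.59, 0.21, 0.34 and 0.95 in Hoxa, Hoxb, Hoxc and Hoxd. After normexp correction limma called 0 CGIs and 0 probes higher and 0 probes lower [0% of the array in each]. At an unadjusted p under 0.05 it had 21, 130 and 2 [14.8%, 13.2% and 0.597%]. The cluster differences after normexp were 0.31 in Hoxa, 0.16 in Hoxb, 0.00081 in Hoxc and 0.53 in Hoxd. With normexp Hoxa CGI 13 turned to -0.21, Hoxb CGI 12 to -0.16 and Hoxd CGI 2 to -0.069. Loess gave 16 CGIs higher [2.54%], 0 probes higher and 0 lower (147 and 2 unadjusted [8.46% and 4.5%]), with 0.40 in Hoxa and 0.62 in Hoxd. Quantile normalization gave 28 CGIs higher [7.16%] and 1 lower [2.75%]. Division by the SD of the array gave 31 higher [9.19%] and 1 lower [1.06%], with 0.34 in Hoxa, 0.21 in Hoxc and 0.56 in Hoxd. The authors' scores gave 32 of 53 CGIs higher [13.2%], 94 of 289 probes higher [7.69%] and 0 lower [1.17%] (3 unadjusted [9.46%]), with 0.40, 0.23 and 0.63 in Hoxa, Hoxc and Hoxd. With probes well above background alone, 79 of 299 probes were higher [5.22%] and 0 lower [0.354%] (5 unadjusted [6.79%]). Medians over probes gave 13 CGIs higher [3.34%], and a gap of 1000 bp turned the run that holds Hoxd CGI 10 to 0.33. The cause of these changes was not tested.

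With slide as a fixed block limma called 0 CGIs and 0 probes higher and 0 probes lower (21, 74 and 18 unadjusted [6.34%, 6.36% and 5.29%]). Hoxb was then -0.092 and Hoxc 0.23, and Hoxa CGI 13 turned to -0.44, Hoxb CGI 12 to -0.26 and Hoxc CGI 17 to -0.058. In that fit only the pair on slide 1 informs the genotype. With slide as a random block 14 probes were higher [0.609%] and 0 lower [0.0293%] (11 unadjusted [4.13%]). The methods' t-test called 33 CGIs higher [11.5%] and 2 lower [6.08%] and 159 probes higher [10.3%] and 7 lower [5.3%] at its unadjusted threshold, and 0 CGIs higher, 0 probes higher and 0 lower after Benjamini-Hochberg adjustment. The labels state no pairing of mice by replicate number, although the 2 replicate 1 arrays shared slide 1. The deviations of same-numbered livers correlated by 0.11, -0.09 and 0.12, which cannot settle whether mice were paired. With the replicate block limma called 18 CGIs higher [3.45%], 16 of them among the 20, and 0 probes higher or lower (180 and 12 unadjusted [11.6% and 4.55%]).

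When each liver was left out in turn, between 1 and 35 CGIs were called higher [0.239% to 19.1%] and between 0 and 1 lower, and between 0 and 59 probes higher [0% to 5.95%] and between 0 and 1 lower. The cluster differences ranged from 0.45 to 0.69 in Hoxa, 0.14 to 0.32 in Hoxb, 0.26 to 0.38 in Hoxc and 0.75 to 1.07 in Hoxd. Hoxc CGI 17 turned to -0.019 without Mdr2-/+ replicate 3, at the low end of a range that reached 0.15 without Mdr2-/+ replicate 1. Signal over background limits the dim islands: 91 Hox probes were not well above background in the MeDIP channel on any Mdr2-/+ array and 67 on any Mdr2-KO array.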
